A study of Mus musculus with 9 samples.

Results

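The 10 genes of matricellular and elastic fibre glycoproteins studied here, Postn, Fn1, Sparc, Thbs1, Thbs2, Tnc, Mgp, Spp1, Fbln2 and Fbn1, were looked up in data from mouse fibroblasts on 9 Affymetrix arrays. A probe set was taken where the platform annotation gave it exactly 1 gene symbol from this list, which found 12 of 22690 probe sets, for 8 of the 10 genes. Spp1 and Fbn1 had no probe set under this rule and were not analysed here, and 1 further probe set that lists Thbs1 together with another gene was left out. The arrays hold 3 lines, with 3 arrays each: NIH 3T3, an established mouse embryo fibroblast line labelled wild type; SV5, a stable clone of NIH 3T3 transformed by simian virus 40 (SV40) and labelled with the large T antigen genotype; and SV5-NN4, a stable clone with both SV40 large T antigen and wild-type Nras. All cells grew in medium with 10% calf serum, and SV5 and SV5-NN4 share the T antigen, so that added Nras is the labelled difference between them. Each transformed line is 1 clone, so the effect of a transgene and a difference between clones cannot be told apart.

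Matricellular proteins are secreted into the extracellular matrix, where they bind cell surface receptors and structural fibres and tune adhesion and signalling more than they bear load. Fibronectin, by contrast, forms fibrils on which other matrix proteins assemble, and elastic fibres are built from elastin on a scaffold of fibrillin microfibrils to which fibulins bind. Fibroblasts are a main source of these proteins, and transformed fibroblasts have long been known to carry less fibronectin at their surface.

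Values are given as deposited intensities or as log2(intensity + 1), called the log2 level here. A difference between lines was tested with limma on all probe sets, with equal replicate numbers paired (the paired fit), and was called at a Benjamini-Hochberg adjusted p under 0.05. A gene with 2 probe sets is described by the brighter one unless the other is named. The arrays differed more by replicate number (61.1% of the variance over all probe sets) than by line (21.8%), and median intensities were 56.2 to 62.35. As a check of the labels, the brightest Nras probe set was 0.06 higher in SV5-NN4 than in SV5 (95% interval -0.28 to 0.4, adjusted p = 0.96 in limma's paired fit), so a rise with the added Nras was not detectable. At this probe set SV5 was 0.72 above NIH 3T3 (95% interval 0.38 to 1.05, adjusted p = 0.12), and SV5-NN4 was 0.78 above NIH 3T3 (adjusted p = 0.052). The other 2 Nras probe sets differed between SV5-NN4 and SV5 by 0.27 (95% interval -0.07 to 0.62, adjusted p = 0.55) and 0.05 (95% interval -0.36 to 0.47, adjusted p = 0.98). Of these 2, 1 was called higher in SV5-NN4 than in NIH 3T3 (1.02, adjusted p = 0.046), with a difference of 0.97 already between SV5 and NIH 3T3 (adjusted p = 0.12). Whether these probe sets read the added Nras transcript was not tested. Of 11 fibroblast markers, 10 lay above the bacterial control probe sets in every line (log2 levels of 3.18 to 4.25). So did 7 of 9 macrophage and leukocyte, 4 of 7 endothelial and 6 of 8 epithelial markers. The same held for 6 of 7 bone and cartilage and 4 of 5 adipocyte markers. Of 6 smooth muscle and myofibroblast markers, 5 lay above them in SV5 and 6 in NIH 3T3 and SV5-NN4. The median probe set level of 5.93 was passed by 10 fibroblast markers in NIH 3T3 and by 9 in SV5 and SV5-NN4. In every line it was passed by 0 of 7 endothelial, 1 of 8 epithelial and 4 of 9 macrophage and leukocyte markers. The same held for 3 of 7 bone and cartilage, 2 of 5 adipocyte and 2 of 6 smooth muscle and myofibroblast markers.

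All 8 genes measured had their highest mean level in SV5, and Postn, Mgp and Thbs2 fell in SV5-NN4 against SV5 (n = 3 arrays per line). Postn fell 11.53-fold, Mgp 8.126-fold and Thbs2 3.194-fold. Postn and Mgp were also called lower in SV5-NN4 than in NIH 3T3, by 6.885-fold and 6.377-fold. Between SV5 and NIH 3T3, 0 of the 12 probe sets were called by limma, with 3 higher at an unadjusted p under 0.05 in the paired fit and 0 without pairing. Over all probe sets 8.56% were higher at that unadjusted threshold in the paired fit and 1.82% without pairing. Since probe sets differ in their response, levels are not compared between genes.

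**Figure D1:**
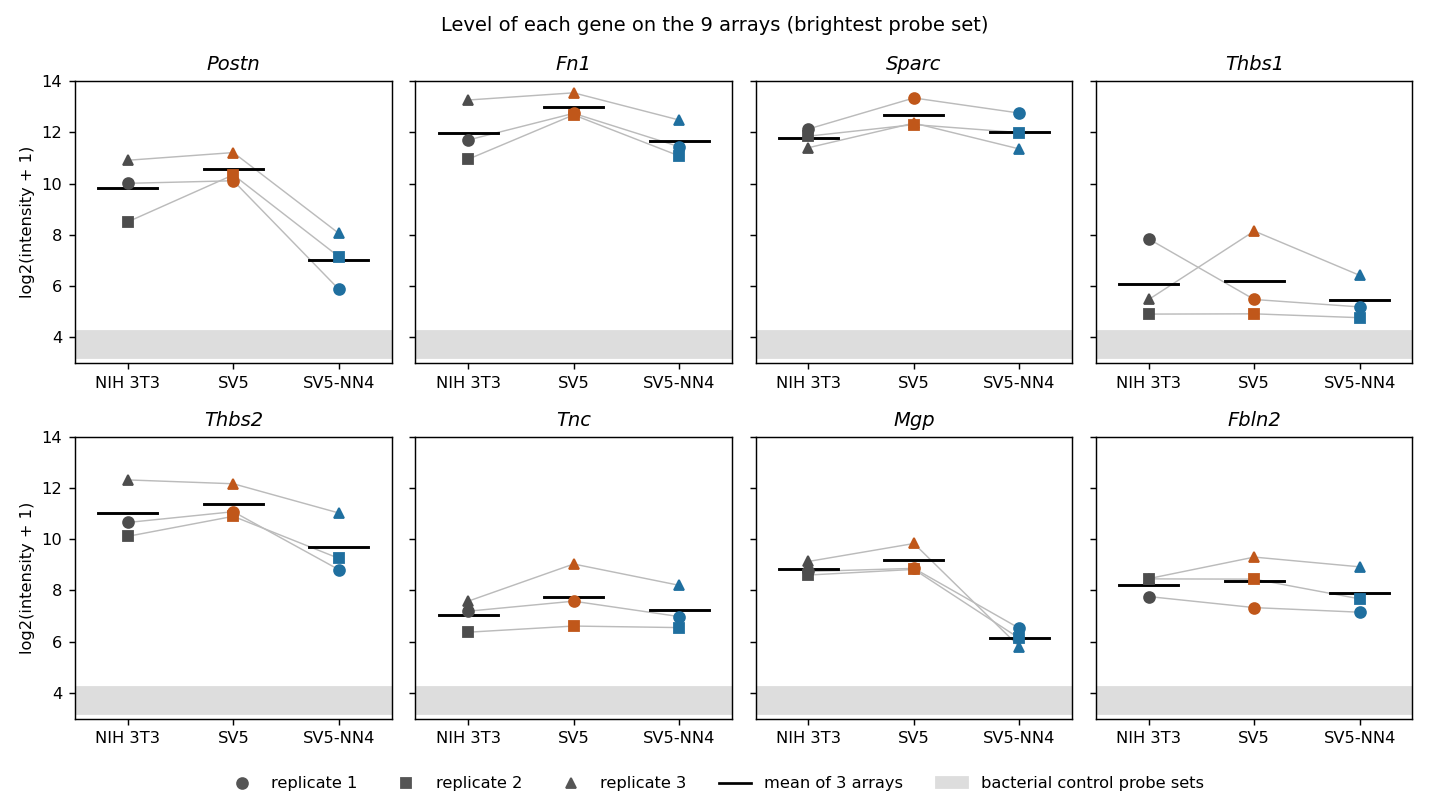
Log2(intensity + 1) of the 8 genes measured, on each of the 9 arrays by line. Symbols mark the replicate number, thin lines join equal numbers, black bars are means of 3 arrays, and the grey band is the range of the bacterial control probe sets. The SV5-NN4 arrays of Postn (5.88 to 8.06) and Mgp (5.8 to 6.52) lie below all arrays of the other lines, while those of Sparc, Tnc and Fbln2 overlap them.

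Postn encodes periostin, a secreted protein of collagen-rich and healing tissue that binds integrins and collagen. Its intensity was 1027, 364.7 and 1925 on NIH 3T3 replicates 1, 2 and 3. In SV5 it was 1103, 1296 and 2372, and in SV5-NN4 it was 57.74, 140.9 and 265.1. The SV5-NN4 arrays were the 3 lowest of the 9, without overlap, while the NIH 3T3 and SV5 arrays overlapped. On the log2 scale Postn fell by 3.53 from SV5 to SV5-NN4 (SE 0.45, 95% interval -4.59 to -2.46, adjusted p = 0.0249 in limma's paired fit), with pairs of -4.23, -3.19 and -3.16. Without the replicate block the adjusted p in limma was 0.247, with log2(value + 16) it was 0.0501, and the 9 settings other than leaving out an array gave 0.00277 to 0.247. The call was lost without any of SV5 replicates 1, 2 and 3 or SV5-NN4 replicates 1, 2 and 3 (differences of -3.96 to -3.01, adjusted p of 0.0708 to 0.185).

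The thrombospondins Thbs1 and Thbs2 are secreted glycoproteins that bind matrix proteins, proteases and the receptors Cd36 and Cd47, and both are known as inhibitors of blood vessel growth. Thbs2 read 1602, 1102 and 5083 in NIH 3T3 replicates 1 to 3. It read 2151, 1892 and 4566 in SV5 and 449.1, 608.1 and 2080 in SV5-NN4. The replicate 3 array was the brightest in every line, so that SV5-NN4 replicate 3 lay within the SV5 range although each SV5-NN4 array was below its SV5 partner. Paired differences were -2.26, -1.64 and -1.13, and Thbs2 fell by 1.68 on the log2 scale (SE 0.24, adjusted p = 0.0356 in limma's paired fit). The second Thbs2 probe set differed by -2.07 (SE 0.42), with pairs of -1.95, -1.9 and -2.37, and missed the threshold (adjusted p = 0.082). The call at the brighter probe set was not held without the replicate block (adjusted p = 1 in limma) or with log2(value + 16) (adjusted p = 0.0578). It was held without NIH 3T3 replicate 1 or 3 (adjusted p of 0.0171 and 0.0402) and lost without NIH 3T3 replicate 2 or any SV5 or SV5-NN4 array (differences of -1.94 to -1.4, adjusted p of 0.0516 to 0.185).

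Thbs1 was dim and erratic at the probe sets that name it alone. The brighter one read 228.8, 29.1 and 43.77 in NIH 3T3, 43.77, 29.34 and 283.9 in SV5 and 35.59, 26.29 and 84.73 in SV5-NN4. One NIH 3T3 array and 1 SV5 array thus stood far above their group. The difference of SV5-NN4 from SV5 was -0.73 with a 95% interval of -2.62 to 1.17 (adjusted p = 0.87 in limma's paired fit), so a fall as large as that of Thbs2 lies within the interval. The other Thbs1 probe set had mean log2 levels of 4.64 to 4.93 in the 3 lines, little above the bacterial controls.

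Promoter sequence is shown for the fallen genes that had an entry in the RefSeq promoter table (build GRCm38.p6), Postn and Thbs2, with Sparc as a gene that was not called. The table held 7 of the 10 genes, in 10 entries; Fn1, Thbs1 and Mgp had none. Each line gives the 250 bases before a transcript start, 5′ to 3′ on the gene's strand, with capitals at every match to the motifs named below. For Postn the second of 2 listed starts is shown, at chr3:54360857-54361106 on the plus strand; Thbs2 is chr17:14694263-14694512 and Sparc chr11:55420081-55420330, both on the minus strand.
Postn: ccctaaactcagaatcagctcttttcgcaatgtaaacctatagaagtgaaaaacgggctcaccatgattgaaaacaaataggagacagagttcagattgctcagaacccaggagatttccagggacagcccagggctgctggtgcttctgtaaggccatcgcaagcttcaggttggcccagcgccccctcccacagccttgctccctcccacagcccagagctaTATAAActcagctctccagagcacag
Thbs2: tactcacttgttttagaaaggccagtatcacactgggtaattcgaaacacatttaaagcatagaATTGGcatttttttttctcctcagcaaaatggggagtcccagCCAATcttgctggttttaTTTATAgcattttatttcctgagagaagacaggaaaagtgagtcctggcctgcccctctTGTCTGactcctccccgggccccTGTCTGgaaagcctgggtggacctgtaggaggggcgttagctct
Sparc: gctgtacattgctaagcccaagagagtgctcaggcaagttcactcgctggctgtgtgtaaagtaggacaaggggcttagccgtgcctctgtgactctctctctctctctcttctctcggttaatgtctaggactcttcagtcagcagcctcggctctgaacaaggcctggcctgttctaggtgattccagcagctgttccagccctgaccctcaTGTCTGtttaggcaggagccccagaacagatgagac

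The motifs searched on both strands were the core of the TATA box as TATAAA, the site of AP-1 as TGANTCA and the core of the Sp1 site as GGGCGG. Further motifs were the CCAAT box as CCAAT, the core of the TEAD site as CATTCC, the E-box of Myc as CACGTG and the core of the SMAD site as CAGACA. None of these motifs contains another, and a match on the opposite strand is printed as its reverse complement. The Postn sequence held TATAAA with its first base 26 bases before the start and no other match, and the window of the other Postn start held 0 matches. Thbs2 held 5 matches: CAGACA in 2 places on the opposite strand, CCAAT once on each strand, and TATAAA on the opposite strand, 126 bases before the start. Sparc held a single CAGACA match, on the opposite strand. Across 32851 promoter windows of the same length, TATAAA occurred in 12.4%, CAGACA in 17.1% and CCAAT in 33.8%. The others, which none of the 3 printed windows held, occurred in 6.75% (AP-1), 32.7% (Sp1), 12.6% (TEAD) and 6.02% (E-box). The only motif in both the Postn and the Thbs2 window was TATAAA, on opposite strands and 26 against 126 bases before the start. It was not particular to the fallen genes. TATAAA also stood in both windows of Tnc, which was not called, at 205 and 126 bases before their starts. These windows overlap, and both hold the same site. A window of Spp1, which was not measured, held it at 211 bases.

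Mgp encodes matrix Gla protein, a small vitamin K-dependent protein known for preventing calcification of cartilage and arteries. It read 426.6, 387.4 and 558.1 in NIH 3T3 and 464.9, 450.6 and 912.3 in SV5. In SV5-NN4 it read 90.8, 68.84 and 54.85, the 3 lowest of the 9 values. Line accounted for 93.9% of its variance and replicate number for 1.42%, against 77.5% and 14.5% for Postn and 42.6% and 52.7% for Thbs2. Mgp fell by 3.02 on the log2 scale in SV5-NN4 against SV5 (SE 0.29, 95% interval -3.71 to -2.33, adjusted p = 0.0117 in limma's paired fit), with pairs of -2.34, -2.69 and -4.03. This call was also made without the replicate block (adjusted p = 0.0173 in limma) and in all 9 settings other than leaving out an array (adjusted p of 0.00285 to 0.0272). It was lost without SV5 replicate 2 (difference -3.14, adjusted p = 0.06) or SV5-NN4 replicate 2 (difference -3.15, adjusted p = 0.0893).

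Fn1 encodes fibronectin, the fibril-forming glycoprotein to which integrins attach through its RGD motif. It read 3330, 1973 and 9808 in NIH 3T3, 6859, 6567 and 11910 in SV5 and 2782, 2171 and 5715 in SV5-NN4. The SV5-NN4 arrays all lay below the SV5 arrays, but within the range of NIH 3T3. SV5-NN4 differed from SV5 by -1.32 (SE 0.25, 95% interval -1.9 to -0.74), with pairs of -1.3, -1.6 and -1.06, and missed the threshold (adjusted p = 0.0682 in limma's paired fit). It passed in 5 of 9 other settings, whose adjusted p ranged from 0.00748 to 1. Fn1 differed by 1.02 between SV5 and NIH 3T3 (95% interval 0.44 to 1.6, adjusted p = 0.16) and by -0.3 between SV5-NN4 and NIH 3T3 (95% interval -0.88 to 0.28, adjusted p = 0.596). The second Fn1 probe set was far dimmer, at mean log2 levels of 7.22, 7.61 and 5.91 in NIH 3T3, SV5 and SV5-NN4, and differed by -1.7 between SV5-NN4 and SV5 (SE 0.52, adjusted p = 0.205).

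Sparc, which encodes osteonectin, a collagen- and calcium-binding matricellular protein, was measured by 2 probe sets. The brighter one read 4491, 3694 and 2705 in NIH 3T3, 10390, 5032 and 5269 in SV5 and 6902, 4053 and 2607 in SV5-NN4. At this probe set all SV5 arrays were above all NIH 3T3 arrays, which held for 2.16% of all probe sets, and the SV5-NN4 arrays overlapped both. The SV5 level was 0.87 above NIH 3T3 on the log2 scale (SE 0.19, 95% interval 0.43 to 1.32, adjusted p = 0.139 in limma's paired fit). SV5-NN4 differed from SV5 by -0.64 (95% interval -1.08 to -0.2, adjusted p = 0.19) and from NIH 3T3 by 0.23 (95% interval -0.21 to 0.68, adjusted p = 0.589). At the dimmer Sparc probe set SV5 and NIH 3T3 overlapped, with pairs of 0.52, 1.18 and -0.18 and a difference of 0.51 (adjusted p = 0.387). The 2 Sparc probe sets ordered the arrays differently: in every line the brighter one was highest on replicate 1 and the dimmer one on replicate 3.

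Tnc and Fbln2 showed no call in any comparison. Tnc encodes tenascin-C, an anti-adhesive glycoprotein of wounds and tumour stroma, and Fbln2 encodes fibulin-2, which binds fibronectin and fibrillin microfibrils. Tnc read 145.1, 81.51 and 190.9 in NIH 3T3, 189.7, 96.4 and 522.3 in SV5 and 125.6, 92.94 and 293.8 in SV5-NN4. Fbln2 read 216.1, 347.5 and 351.7, then 159.5, 346.1 and 629.3, then 140.9, 203 and 482.2 in the same lines. For both genes all lines overlapped, and replicate number accounted for 78.8% and 77.7% of the variance. SV5-NN4 differed from SV5 by -0.49 for Tnc (95% interval -1.06 to 0.08) and by -0.44 for Fbln2 (95% interval -1.06 to 0.18), with adjusted p of 0.481 and 0.608 in limma's paired fit. These intervals reach past a log2 difference of -1, so a fall of that size lies within both.

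**Figure D2:**
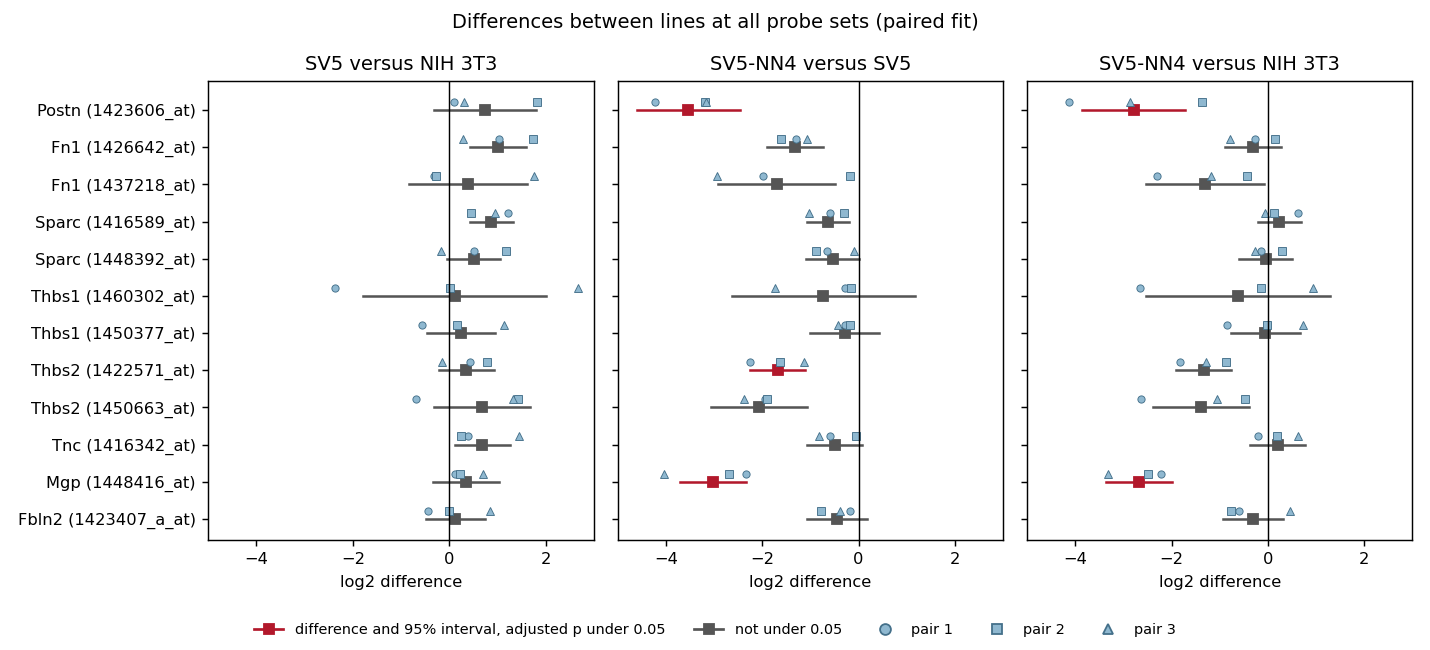
Log2 differences between lines at the 12 probe sets, with 95% intervals from the paired fit (squares and bars) and the 3 single pairs (small symbols). In SV5-NN4 against SV5 all 12 differences lie below 0, from -3.53 to -0.29, and 3 are called. In SV5 against NIH 3T3 all 12 lie above 0, from 0.11 to 1.02, and 0 are called. Over all genes 47.8% lay below 0 in the first comparison and 55.2% in the second. Both comparisons use the same SV5 arrays, so their opposite signs are not independent.

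Added Nras in cells that already carry T antigen is the question behind SV5-NN4 against SV5. Here 3 of the 12 probe sets were called in the paired fit, all lower. Over all probe sets 0.555% were called lower. Without the replicate block 1 of the 12, that of Mgp, was called lower by limma, where 0.0793% of all probe sets were. The arrays of the lines did not overlap for 3 of the 8 genes, Postn, Mgp and Fn1, which were lower on every SV5-NN4 array; this held for 3.72% of all probe sets. All 8 genes lay below 0, with a median log2 difference of -1.02, where 47.8% of all 12394 genes lay below 0 with a median of 0.01. As the gene list was chosen with earlier results of these data known, these values are a description. No single SV5 or SV5-NN4 array could be left out with all 3 calls held. The count was 0 without SV5 replicate 2 or SV5-NN4 replicate 2, and 1 (Mgp) without any other SV5 or SV5-NN4 array. It was 2 without NIH 3T3 replicate 2, and 4, with Fn1 added, without NIH 3T3 replicate 3. It was 5 without NIH 3T3 replicate 1, which paired weakly with the others (r of 0.26 and 0.33). Fn1 and the second Thbs2 probe set were then called too. Over all probe sets the calls fell from 196 to between 14 and 42 without an SV5 or SV5-NN4 array. They were 102, 950 and 317 without NIH 3T3 replicates 2, 1 and 3. With single arrays left out, Mgp differed by -3.31 to -2.61, Postn by -3.96 to -3.01 and Thbs2 by -1.94 to -1.4.

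A measure of RNA quality showed far more 3' than 5' signal on every array, by a log2 ratio of 2.36 or more. It differed both between and within the lines. The log2 ratio of 3' to 5' control probe sets, which is higher in more degraded RNA, was 4.07, 4.63 and 3.66 for Actb in SV5-NN4 replicates 1 to 3 against 3.73, 4.32 and 2.42 in SV5. For Gapdh it was 2.66, 3.52 and 3.05 against 2.45, 3.03 and 2.36. It was thus higher in SV5-NN4 in each pair. In NIH 3T3 it was 4.25, 4.43 and 5.06 for Actb and 2.65, 2.99 and 5.21 for Gapdh, with replicate 3 the highest of all arrays for both. Among the NIH 3T3 arrays, replicate 3 also had the highest Postn (1925), Fn1 (9808), Thbs2 (5083), Mgp (558.1), Tnc (190.9) and Fbln2 (351.7). It had the lowest Sparc (2705), and its Thbs1 (43.77) lay between the other arrays. SV5, where all 8 genes had their highest mean, had the lowest Actb ratio of the 3 lines at each replicate number, and a lower Gapdh ratio than NIH 3T3 at 2 of 3. The part of RNA quality in the differences of the matrix genes was not tested. The summed intensity of the 11 fibroblast markers was 32870 to 47820 in SV5 and 22370 to 32710 in SV5-NN4, and that of 6 smooth muscle and myofibroblast markers was 4335 to 7692 against 2592 to 3863. Of the latter list 0 were called by limma, with 2 lower and 1 higher at an unadjusted p under 0.05. By sign 3 lay below 0 and 3 above, with a median of -0.02. The sum of this list mostly follows Acta2, at a log2 level of 12.39 in SV5, where the next, Tagln, was at 7.34. Acta2 differed by -0.86 (adjusted p = 0.199 in limma's paired fit). The part of both marker lists in the differences of the matrix genes was not tested. From bulk arrays fewer cells of a kind and less RNA per cell cannot be told apart.

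Between SV5-NN4 and NIH 3T3, 2 of the 12 probe sets were called lower in the paired fit, those of Postn and Mgp, where 0.516% of all probe sets were. Without the replicate block only that of Mgp was called by limma, where 0.0705% of all probe sets were. Postn fell by 2.78 (SE 0.45, adjusted p = 0.0414), with pairs of -4.13, -1.37 and -2.86, and Mgp fell by 2.67 (SE 0.29, adjusted p = 0.0149), with pairs of -2.22, -2.48 and -3.32. For these 2 genes all SV5-NN4 arrays lay below all NIH 3T3 arrays, which held for 3.11% of all probe sets. Thbs2 differed by -1.33 (SE 0.24, 95% interval -1.9 to -0.76) and missed the threshold narrowly (adjusted p = 0.0504 in limma's paired fit); it passed in 5 of 9 other settings (adjusted p of 0.0317 to 1). The median of the 8 genes was -0.46, against -0.03 over all genes, with Sparc and Tnc above 0. This comparison shares the SV5-NN4 arrays with the one above, so both hold the same low values. Postn stayed called without NIH 3T3 replicate 1 (adjusted p = 0.0263) and lost its call without any other of the 9 arrays (adjusted p of 0.0503 to 0.217). It was also lost without the replicate block (adjusted p = 0.49), with log2(value + 16) (0.0636) and with only the arrays of these lines (0.122). Mgp lost its call without NIH 3T3 replicate 2 (difference -2.69, adjusted p = 0.0831) or SV5-NN4 replicate 2 (difference -2.8, adjusted p = 0.103), and with only the arrays of these lines (adjusted p = 0.0574).

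Between SV5 and NIH 3T3, which asks what differs with T antigen, 0 of the 12 probe sets and 0.0617% of all probe sets were called in the paired fit. The differences of the 8 genes ran from 0.11 for Thbs1 to 1.02 for Fn1, with a median of 0.52 against -0.03 over all genes. All 8 thus lay above 0, where 55.2% of all genes lay below 0. The SV5 arrays are also those that SV5-NN4 was set against, so high SV5 values enter both comparisons with opposite sign. The 3 probe sets with an unadjusted p under 0.05 were the brighter ones of Fn1 and Sparc and that of Tnc, which differed by 0.69 (95% interval 0.12 to 1.26, adjusted p = 0.271 in limma). Without NIH 3T3 replicate 1, the second Thbs2 probe set was called higher in SV5.

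**Figure D3:**
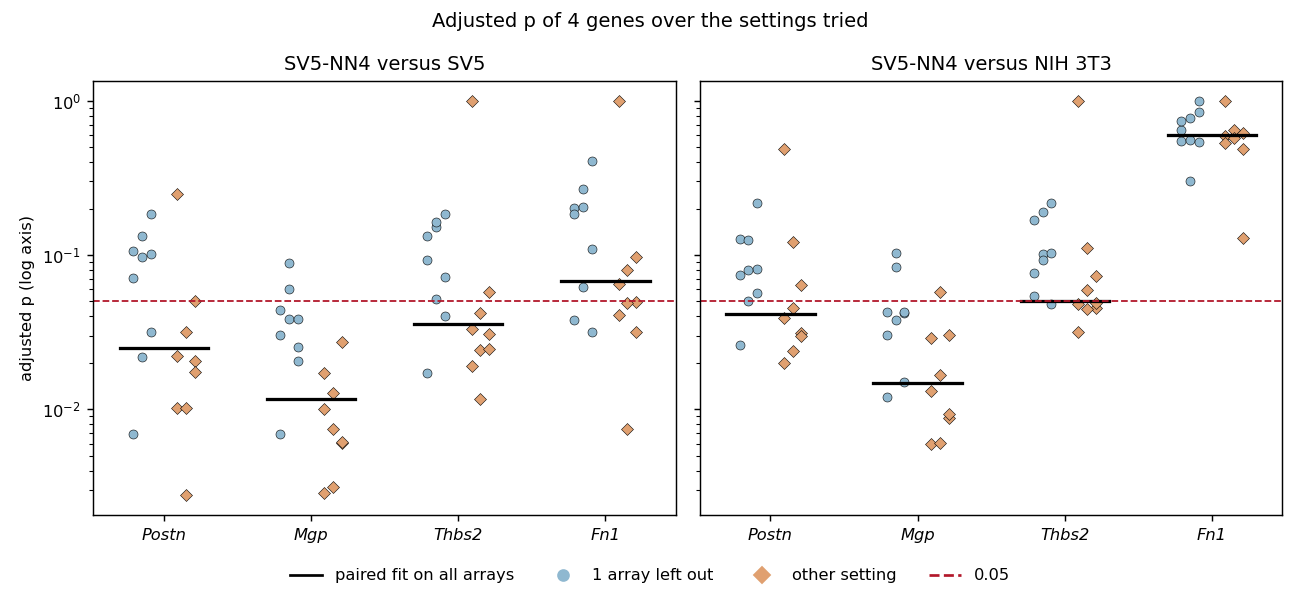
Adjusted p of Postn, Mgp, Thbs2 and Fn1 in both comparisons of SV5-NN4, on a log axis. Black bars are the paired fit on all arrays, circles leave out 1 array, diamonds are other settings, and the dashed line is 0.05. Only the circles of Mgp lie mostly below the line: in SV5-NN4 against SV5 its adjusted p was 0.00688 to 0.0893, and that of Postn 0.00688 to 0.185.

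After the mean of each replicate number was removed, the levels of Postn, Thbs2 and Mgp ran alike over the 9 arrays, with Pearson r of 0.98 for Postn and Thbs2, 0.91 for Postn and Mgp and 0.87 for Thbs2 and Mgp. These 9 arrays hold only 3 lines, so r mostly reflects how the line means differ, and it is given as a description. Sparc ran most like Tnc (r of 0.74) and Thbs1 most like Fbln2 (0.76). Among 7136 other genes above the median level, those most like Postn were Eif3e (r of 0.995), a subunit of a translation initiation factor, and Ppic (0.99), which encodes a cyclophilin. Those most like Thbs2 were Zfp148 (0.998), a zinc finger transcription factor, and Ppic again (0.993). Mgp ran most like Acad10 and Itm2b (both 0.985), and Fn1 most like Cop1 (0.992), a ubiquitin ligase, and Rpl14 (0.988), a ribosomal protein. The likeness is of shape and not of size: SV5-NN4 differed from SV5 by -0.39 for Eif3e and -0.94 for Ppic.

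Genes related to these proteins mostly gave no call, as did most probe sets (0.0617% to 1.65% called in a comparison of the paired fit). Of 19 other matricellular genes measured, 0 were called in any of the 3 comparisons by limma; at an unadjusted p under 0.05, 3 were lower and 1 higher in SV5-NN4 against SV5, where 6.34% of all probe sets were lower and 6.64% higher. Their median there was -0.05. Against NIH 3T3, 7 were lower and 0 higher at that threshold, where 7.1% of all probe sets were lower, and their median was -0.29. Mean log2 levels of these genes in SV5 ran from 4.04 (Ibsp) to 11.64 (Fstl1), against 6.19 (Thbs1) to 12.99 (Fn1) for the 8 genes. Ibsp and Tgfbi (4.17) lay within the bacterial control range, where a gene has little room to fall. In SV5-NN4 against SV5, Matn2, which encodes a filament-forming matrilin, differed by -1.64 (adjusted p = 0.0623) and Fstl1, a secreted relative of Sparc, by -0.77 (adjusted p = 0.133), while Ccn1 and Ccn2, further matricellular proteins that bind integrins, differed by 0.19 and -0.37.

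Of 15 other elastic fibre and microfibril genes, limma gave 4 lower and 0 higher in SV5-NN4 against SV5 (unadjusted p under 0.05). Over all probe sets 6.34% were lower and 6.64% higher there. By sign 11 of the 15 lay below 0, and the median was -0.39. SV5-NN4 against NIH 3T3 gave 6 lower and 1 higher at that threshold, where 7.1% of all probe sets were lower and 10% higher. Only 1 was called in any comparison, in SV5-NN4 against SV5, where 0.555% of all probe sets were called lower. This was Lox, the lysyl oxidase that crosslinks elastin and collagen, which fell by 1.23, from 13.01 ± 0.27 (log2 mean ± SD, n = 3) to 11.78 ± 0.14 (adjusted p = 0.0218 in limma's paired fit, 0.24 without the replicate block). Eln itself, which encodes elastin, differed by 0.08. Fbln5, a fibulin needed for elastic fibre assembly, differed by -0.91 (adjusted p = 0.164). In SV5 the mean log2 levels of these 15 genes ran from 4.77 (Fbln1) to 13.01 (Lox), and the low ones have little room to fall.

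Of 14 receptors of these proteins, 12 genes of TGF-beta signalling, a pathway known to induce many matrix genes, and 7 modifying enzymes, 0 were called in any comparison by limma. Over all probe sets only 0.0617% to 1.65% were called in a comparison, and at that share lists of this size hold few or no calls. In SV5-NN4 against SV5, at an unadjusted p under 0.05, 0 receptors, 2 TGF-beta genes (both lower) and 1 enzyme (higher) passed, and the medians were -0.08, -0.11 and -0.05. Over all probe sets 6.34% were lower and 6.64% higher at that threshold. Itgav, the integrin subunit that pairs with several beta chains to bind fibronectin and periostin, differed by 0.22, Itgb1 by -0.16 and Cd44, a receptor of osteopontin and hyaluronan, by 0.26. Tgfbr2, a TGF-beta receptor, differed by -0.9 (adjusted p = 0.129). Ggcx, the enzyme that carboxylates Mgp, differed by -0.19. Some genes of these lists lay within the bacterial control range in SV5, such as Itgb6 (3.94), Cd36 (3.96) and Tll1 (3.46). Of the 11 fibroblast markers, 3 were called lower in SV5-NN4 against SV5 in limma's paired fit, where 0.555% of all probe sets were. At an unadjusted p under 0.05, 7 were lower and 0 higher. By sign 9 of the 11 lay below 0, with a median of -0.58. Pdgfra, a growth factor receptor, fell by 2.1 (adjusted p = 0.00317) and the surface protein Thy1 fell by 1.39 (adjusted p = 0.0056). The collagen chain Col3a1 fell by 1.05 (adjusted p = 0.0336), while Vim, which encodes vimentin, differed by 0.01. Thy1 alone was called without the replicate block (adjusted p = 0.0231 in limma). Against NIH 3T3, Thy1 fell by 2.09 (adjusted p = 0.00178) and Pdgfra fell by 1.2 (adjusted p = 0.0217); without the replicate block the adjusted p in limma was 0.00143 for Thy1 and 0.659 for Pdgfra.

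**Figure D4:**
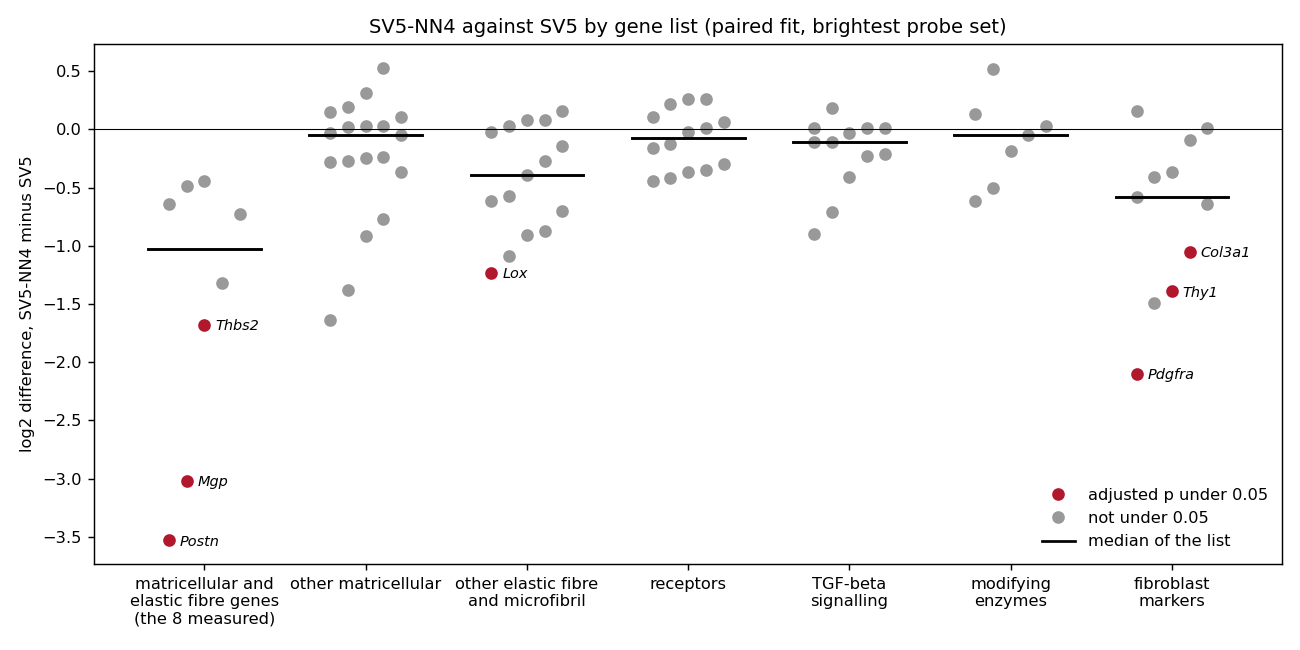
Log2 difference of SV5-NN4 from SV5 for each gene measured in 7 lists, by its brightest probe set, with the median of each list as a bar. Red points have an adjusted p under 0.05 in the paired fit. Postn and Mgp lie lowest, at -3.53 and -3.02, and the median of the 8 matrix genes (-1.02) is the lowest of the 7. The lists were chosen with earlier results of these data known, so the order of the medians is a description only.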

How the data were processed

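Gene expression was measured on 1-colour Affymetrix arrays from 5 ug of total RNA per array, extracted with Trizol and labelled by the one-cycle protocol, per the labels' protocols. The authors deposited linear-scale intensities, summarised per probe set by the authors with RMA, per the submitters' processing notes, with version and settings not given in the sources used here. RMA normally sets arrays to one distribution, but upper quartiles still ran from 165.2 to 239.7, and a change shared by most transcripts could not be seen.

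Values were used as log2(intensity + 1), which slightly understates changes of dim probe sets. Of 22690 probe sets, 20393 had 1 symbol, 691 several and 1606 none in the platform annotation. limma 3.58.1 in R 4.3.3 (lmFit, eBayes) fitted 1 mean per line and the replicate number on all 9 arrays, and p-values were adjusted by Benjamini-Hochberg over all probe sets. The fit was tested on simulated data. Genes with several probe sets were taken at the one whose mean over all arrays was highest. Groups and replicate numbers came from the sample titles.

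The numbers paired the arrays in the data, not by any label: after group means were removed, all 9 pairs of equal number correlated above 0.1 across probe sets (r of 0.26 to 0.84), against -0.73 to 0.11 for the other 18 pairs. Removing group means pushes the other pairs down where equal numbers correlate, so these 18 are no independent contrast. Whether replicates are separate cultures is not given in the labels. The p-values therefore rest on array-to-array spread that may be only technical, and the number of arrays limits the precision. The member genes, the lists of related genes and markers and the paired design were chosen with earlier results of these data known. Named genes were all members, Nras, called genes of the other lists and the 2 genes most like in pattern to each member that differed by at least 1 (log2) between lines and lay above the median level; other list genes given by value were chosen for their known role or after their values were seen. Alternatives covered the block, the arrays used, the pseudocount, scaling, a filter on low values, the spread prior, averaging of probe sets and each array left out.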

Additional observations from a re-analysis of the deposited data

How the results depend on the processing

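With single arrays left out, the number of called probe sets ranged from 0 to 5 in SV5-NN4 against SV5, from 0 to 2 in SV5-NN4 against NIH 3T3 and from 0 to 1 in SV5 against NIH 3T3, and the median of the 8 genes from -1.38 to -0.98, from -0.94 to -0.2 and from 0.31 to 0.78. With no replicate block the counts in SV5-NN4 against SV5 and against NIH 3T3 were 1 and 1, where the paired fit had 3 and 2; with log2(value + 16) they were also 1 and 1, and with only the arrays of the lines compared 5 and 0. Over all 8 other settings the counts ran from 1 to 5 and from 0 to 3. Over the probe sets at or above the median level the count against SV5 was 5 and the median, without Thbs1, which the filter removed, was -1.32. Over all probe sets the block moved the calls from 19 to 196 in SV5-NN4 against SV5, from 18 to 375 against NIH 3T3 and from 1 to 14 in SV5 against NIH 3T3, and with only the lines compared these were 1504, 18 and 0.

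The called differences kept their direction in every setting run. Those that turned were not called: Fbln2 and Thbs1 in SV5 against NIH 3T3 read -0.02 and -0.03 with quantile normalization, and from -0.24 to 0.35 and from -0.92 to 1.23 with single arrays left out. Leaving out arrays also gave -1.65 to 0.51 for Thbs1, -0.59 to 0 for Fn1 and -0.09 to 0.38 for Tnc in SV5-NN4 against NIH 3T3, and -1.45 to 0.17 for Thbs1 in SV5-NN4 against SV5. Of 213 single-gene results under settings other than left-out arrays, 193 kept direction and call, and of 216 with an array left out 180 did (8 reversed, 25 lost a call and 3 gained one). The cause of the changes was not tested. Averaging probe sets gives no count of probe sets and was run for genes only. The dimmer Thbs1 probe set lay little above the bacterial controls.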

Other observations

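Many deposited values recurred exactly: 45059 of 204210 values (22.1%) were found more than once in the table, 25.7% of those at or below the overall median and 18.4% of those above it. Among the matrix genes this touched 5 of 18 values of Thbs1, 2 of 9 of Mgp, 2 of 9 of Tnc, 2 of 18 of Fn1 and 1 of 9 of Postn, and 0 of those of Sparc, Thbs2 and Fbln2. The intensity of 43.77 for Thbs1 stood in both NIH 3T3 replicate 3 and SV5 replicate 1.

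Mgp differed from the other called genes in how it followed the replicate number. Postn and Thbs2 were highest on replicate 3 in every line. Mgp was highest on replicate 3 in NIH 3T3 and SV5 (558.1 and 912.3) but lowest there in SV5-NN4 (54.85).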
